A study of Mus musculus with 2 samples.

Results

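Notch1, Notch2, Dll1, Dll4, Jag1, Hes1, Atoh1, Spdef, Gfi1 and Creb3l1, the 10 genes described here, cover Notch signalling and the transcription factors of secretory cells in the mouse colon. They were chosen by symbol, and all 10 were found among the 43346 Ensembl genes of both libraries' gene tables. The tissue was colon of C57BL/6J mice aged 8 weeks, with no treatment named, and the labels call the source littermates of both sexes, pooled. Both libraries were made from polyadenylated RNA longer than 200 nt and read from both ends at 76 nt. They form 1 group, so the design gives levels and the spread between 2 libraries, with no condition to compare. The labels number them as biological replicates with a tissue record each but list 1 donor record for both. They do not say which animals went into which library, so the spread between these libraries may be partly technical. The exact binomial p-values below set a difference between the libraries against counting error alone.

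In Notch signalling, a membrane ligand of the Delta-like or Jagged family on one cell binds a Notch receptor on its neighbour. The receptor is then cut, and its inner part moves to the nucleus, joins the DNA-binding protein RBPJ and raises the transcription of targets such as Hes1. In the gut epithelium HES1 represses Atoh1, so cells that receive the signal tend towards the absorptive fate and cells that send it towards the secretory fate. ATOH1 in turn starts the goblet, enteroendocrine and Paneth programs, and GFI1, SPDEF and CREB3L1 act after it in secretory or goblet cells.

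The libraries held 46271167 expected counts of genes in replicate 1 and 45499561 in replicate 2. The sex-linked reads went against the label of pooled sexes. Xist had 8721 counts in replicate 1 and 12 in replicate 2, and 4 Y-linked genes had 0 and 1382. By these reads the libraries differ in sex and were not drawn from the same mix of animals. Sex therefore cannot be told apart from any other difference between the libraries. Defining markers of colon epithelium were high, with 7 goblet cell markers at a summed TPM of 29467 and 33503 (Muc2 and Spink4 highest) and 7 colonocyte markers at 18636 and 20561 (Lypd8 and Guca2a highest). Paneth cell markers, which the colon normally lacks, summed to 2.64 and 5.35, and 3 of 5 had 0 counts in both libraries, with Lyz1 and Mmp7 the highest. Lyz1 passed the threshold between the libraries (an adjusted p of at most 0.05 and a 2-fold ratio, which 6.36% of all genes tested passed), with 86 and 186 counts (log2 ratio -1.14, adjusted p 2.41e-09 by the exact binomial test, and 1 by edgeR's exact test). Transcripts of the pancreas, a neighbouring organ, were high in 1 library: 6 acinar markers summed to 26.7 in replicate 1 and 28501 in replicate 2, with Ctrb1 and Cela2a highest and all 6 past the threshold. In whole tissue, fewer cells of a type and less RNA per cell cannot be told apart.

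RefSeq promoter windows, 250 bases before to 50 after a gene's start (GRCm38.p6), were matched for 8 of the 10 genes. Hes1 and Creb3l1 had no entry. Those of Atoh1, Spdef and Gfi1 are printed because these genes carry the secretory results below, and because the reads of Gfi1 were divided between transcripts that begin in its 2 windows. Capitals mark CACGCG (a class C site bound by HES proteins), TGGGAA (the core of the RBPJ motif) and, in the Gfi1 windows alone, CANNTG (the E box that basic helix-loop-helix factors such as ATOH1 bind), searched on both strands. Sequences run 5′ to 3′ on the gene's strand.

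Atoh1 promoter, chr6:64728875-64729174, plus strand: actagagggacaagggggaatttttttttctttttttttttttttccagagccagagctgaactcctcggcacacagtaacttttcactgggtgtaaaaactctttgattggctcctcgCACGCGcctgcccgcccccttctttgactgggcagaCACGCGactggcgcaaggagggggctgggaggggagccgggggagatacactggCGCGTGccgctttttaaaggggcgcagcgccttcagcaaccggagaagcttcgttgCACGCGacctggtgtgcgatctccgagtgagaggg

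Spdef promoter, chr17:27728902-27729201, minus strand: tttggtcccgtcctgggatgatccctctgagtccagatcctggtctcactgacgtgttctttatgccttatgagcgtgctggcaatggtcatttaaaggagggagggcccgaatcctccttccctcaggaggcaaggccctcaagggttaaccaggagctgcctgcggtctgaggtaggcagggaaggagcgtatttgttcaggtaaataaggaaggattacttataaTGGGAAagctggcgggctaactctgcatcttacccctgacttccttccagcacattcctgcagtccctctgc

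Gfi1 upstream promoter, chr5:107725756-107726055, minus strand: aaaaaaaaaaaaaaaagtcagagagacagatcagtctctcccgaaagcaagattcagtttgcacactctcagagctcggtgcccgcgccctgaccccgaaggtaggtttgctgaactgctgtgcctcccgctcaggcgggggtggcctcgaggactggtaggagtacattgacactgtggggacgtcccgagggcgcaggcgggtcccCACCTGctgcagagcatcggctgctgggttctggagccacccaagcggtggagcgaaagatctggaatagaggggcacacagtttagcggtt

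Gfi1 downstream promoter, chr5:107724294-107724593, minus strand: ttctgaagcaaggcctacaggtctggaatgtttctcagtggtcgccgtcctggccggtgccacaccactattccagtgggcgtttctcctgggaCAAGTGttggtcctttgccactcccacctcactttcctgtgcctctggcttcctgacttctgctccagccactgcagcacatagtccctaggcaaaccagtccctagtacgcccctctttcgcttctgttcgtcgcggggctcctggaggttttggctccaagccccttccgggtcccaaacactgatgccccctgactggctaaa

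The Atoh1 window held 4 matches to CACGCG, whose first bases lay 131, 95 and 41 bases before the start and at base 16 after it. At least 1 match was found in 9.27% of 32851 promoter windows of this length, and 4 or more in 0.0761% of them. The GC content of the window was 56.7%, against a median of 52.7% over all windows, and the part of base composition in this count was not tested. The Spdef window held 1 match to TGGGAA, 22 bases before the start, a word found in 25.6% of all windows. It was the only match to that word in the 10 windows of the 8 genes. CACGCG was found elsewhere in these windows once in Notch2, once in Dll4, 2 times in Jag1 and once in 1 of the windows of Dll1. Each Gfi1 window held 1 E box, which 72.3% of all windows hold. A match is a description of the sequence and does not show binding.

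Hes1 and 3 of the 4 secretory factors, Spdef, Creb3l1 and Atoh1, were above every receptor and ligand of the set in both libraries (plot of levels). Gfi1, the other secretory factor, was below Notch1 and overlapped Dll1. The level is TPM, which is per length and can be set side by side between genes. Summed, the 4 secretory factors had 502 ± 47.8 TPM (mean ± SD, n = 2 here and below), Hes1 alone 384 ± 25.0, the 3 ligands 44.05 ± 1.77 and the 2 receptors 42.3 ± 4.91. These sums use TPM of the whole gene. By coding transcripts alone, chosen after seeing the data, mean TPM was 21.2 for Notch1, 10.2 for Notch2, 12.6 for Dll1, 12.9 for Dll4 and 3.585 for Jag1. The order of the ligand and receptor sums thus depends on how reads are divided between transcripts. All 10 genes were above a TPM of 1 in both libraries. Among the 13287 genes at that level in both, Hes1 ranked 347, Spdef 533, Creb3l1 1317 and Atoh1 1458, while Notch2 ranked 7633 and Jag1 10427. In the order of means, Creb3l1 and Atoh1 overlapped between libraries, as did Gfi1 and Dll1. The other neighbours did not overlap over these 2 libraries.

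**Figure D1:**
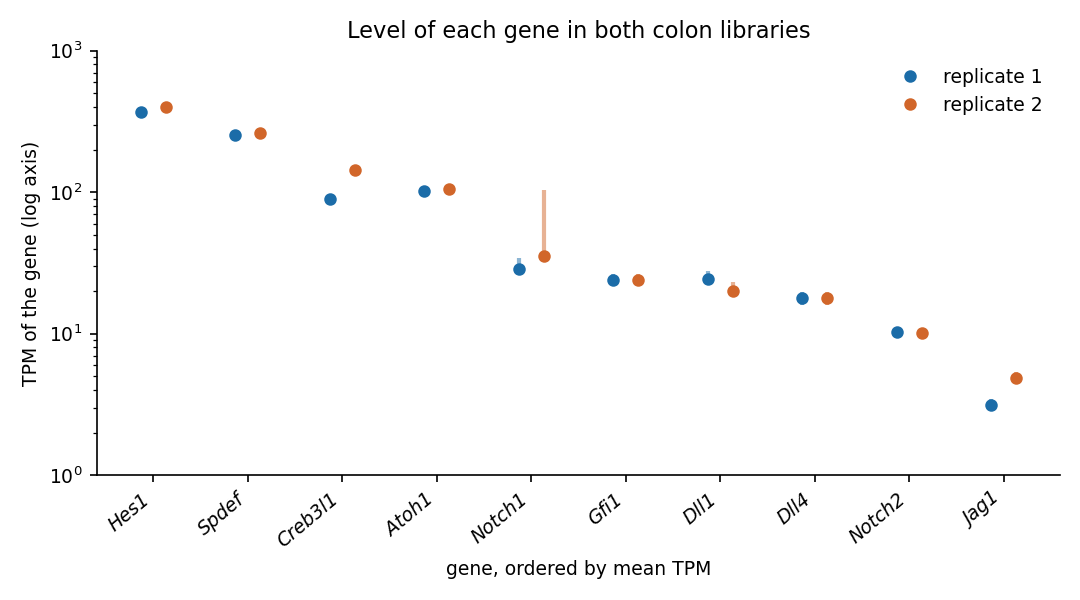
TPM of each gene (log axis) in replicate 1 (blue) and replicate 2 (orange), ordered by mean, with the authors' bounds around TPM as vertical bars where they are wider than the point. Hes1 and Spdef lie highest in both libraries and Jag1 lowest, and the upper bound of Notch1 in replicate 2 reaches 104.

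Atoh1, the basic helix-loop-helix factor that secretory cells require (ENSMUSG00000073043.4, chromosome 6, 64729125 to 64731245, plus strand), had 6969 counts and 101 TPM in replicate 1 and 7221 counts and 106 TPM in replicate 2. It has 1 annotated transcript with 1 exon of 2088 nt, so its level does not depend on how reads are divided between transcripts. The libraries were close, with a log2 ratio of -0.08.

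Spdef, the Ets-family factor of goblet cell maturation (ENSMUSG00000024215.9, chromosome 17, 27714352 to 27728955, minus strand), had 14753 counts and 253 TPM in replicate 1 and 15330 counts and 263 TPM in replicate 2. It was the member with the most reads in both libraries. Its main coding transcript of 1824 nt took 97.1% and 97.8% of its TPM. The ratio of Spdef to Atoh1 was 2.49 in replicate 1 and 2.48 in replicate 2, the closest agreement among 6 ratios computed between members.

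Creb3l1, a membrane-bound factor of the endoplasmic reticulum stress response that is also known in goblet cell maturation and in collagen-secreting cells (ENSMUSG00000027230.9, chromosome 2, 91982328 to 92024502, minus strand), had 7848 counts and 89.7 TPM in replicate 1 and 12347 counts and 143 TPM in replicate 2. Of the 10 genes it differed most between the libraries, 1.61-fold higher in replicate 2 (log2 ratio -0.68). The adjusted p of the exact binomial test, which sees counting error alone, was 7.33e-241, and that of edgeR's exact test at the common dispersion was 1. The dispersion of edgeR's test came from these same 2 libraries, so its result does not show that they are alike. The ratio did not reach the 2-fold threshold, and 14.8% of all genes tested, many with far fewer counts, lay at least as far from 0. Among genes nearer in length the ratio was less common. In the 4828 genes of 2000 to 4000 nt effective length whose mean TPM reached 1, the 5th percentile was -0.485. Creb3l1 has 1 annotated transcript, so this difference is one of reads. Its ratio to Spdef was accordingly 0.355 in replicate 1 and 0.542 in replicate 2. The goblet marker median log2 ratio was -0.24 over 7 genes, 6 of them below 0. The fibroblast marker median, over 6 genes led by Col3a1 and Col1a2, was -0.26, and all 6 were below 0. The acinar markers were high in the same library, which also held the Y-linked reads. The part of any of these, or of sex, in the Creb3l1 difference was not tested.

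Gfi1, a zinc finger repressor of secretory progenitors that lymphoid cells also use (ENSMUSG00000029275.13, chromosome 5, 107716657 to 107726036, minus strand), had 1461 counts and 24.15 TPM in replicate 1 and 1525 counts and 24.0 TPM in replicate 2. The gene total was level between the libraries, while the estimates for its transcripts differed. The 2 long transcripts that begin at the upstream start (position 107725805) took 475 counts in replicate 1 and 926 in replicate 2. The transcript from the downstream start, 1462 bases further along the gene, took 588 and 333. The ratio of TPM between them was 0.881 in replicate 1 and 3.02 in replicate 2. A short coding transcript of 689 nt, which begins further upstream at position 107726036 but within the same upstream window, took 27.7% and 28.7% of the TPM. With it, the upstream window was the higher in both libraries among transcripts of GENCODE vM21, with 12.0 against 6.06 TPM in replicate 1 and 17.4 against 3.48 in replicate 2. Another transcript of 1482 nt, which has no entry in GENCODE vM21, took 25.1% and 13.0%. Its start was not known here, so it was left out of both windows. It had 6.06 TPM in replicate 1, and the order of the windows in that library depends on where it begins. The authors' bounds around these estimates are wide: those of the 2639-nt upstream transcript ran from 0.672 to 6.67 TPM in replicate 1 and from 0.984 to 10.7 in replicate 2. Those of the 2860-nt downstream transcript ran from 3.80 to 8.81 and from 1.95 to 5.03. For both of these transcripts the bounds overlap between the libraries. For the 1482-nt transcript they do not, with 4.80 to 7.30 TPM in replicate 1 and 2.13 to 4.14 in replicate 2. No test was made of these divisions of shared reads. Lymphoid markers summed to 35.3 and 36.1 TPM, with Cd79a and Lck highest.

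Hes1, the repressor that Notch signalling induces (ENSMUSG00000022528.7, chromosome 16, 30064384 to 30067796, plus strand), had 7938 counts and 367 TPM in replicate 1 and 7143 counts and 402 TPM in replicate 2. By TPM it was higher in replicate 2, and by scaled counts it was higher in replicate 1 (log2 ratio 0.12). The transcript tables show where the directions part. The coding transcript of 1468 nt and 4 exons had 4197 counts and 91.2 TPM in replicate 1 and 3437 counts and 75.2 TPM in replicate 2, which is 24.9% and 18.7% of the gene's TPM. A processed transcript of 653 nt had 196 and 143 TPM. A retained-intron transcript of 406 nt had 568 counts and 79.4 TPM in replicate 1 and 1366 counts and 184 TPM in replicate 2, which is 21.6% and 45.7% of the gene. The authors' bounds for it, 68.2 to 89.4 and 169 to 194 TPM, do not overlap. Of its 406 bases 340, and of the 653 bases 448, lie in exons of the coding transcript. Reads within those bases can fit the coding transcript too, and how many did so was not counted. Each read placed on the 406-nt transcript weighs more in TPM, because its effective length was 196 nt against 1258 nt for the coding transcript in replicate 1.

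The standing of Hes1 among the other genes therefore turned on this division. With coding transcripts alone, an alternative chosen after seeing the data, Hes1 had 83.2 ± 11.4 TPM and stood below Spdef, Creb3l1 and Atoh1. With all reads of each gene placed on its main coding transcript, also chosen after seeing the data, it had 164 ± 11.6 TPM and stood second to Spdef. The ratio of Hes1 to Atoh1 was 3.61 and 3.79 by TPM of the gene, 0.899 and 0.709 by coding transcripts, and 1.59 as the mean of both libraries with all reads on the coding transcript. Over 7402 protein-coding genes whose mean TPM reached 10, the median share of TPM in coding transcripts was 98.2%, and 5.19% of these genes had a share as low as that of Hes1.

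**Figure D2:**
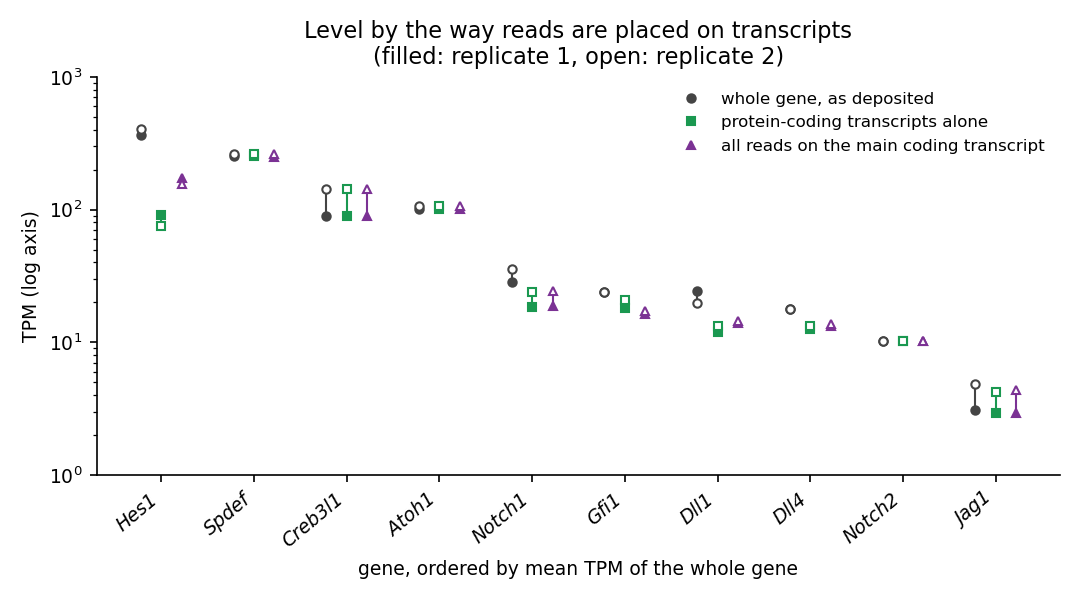
TPM (log axis) of each gene as deposited (grey circles), from its protein-coding transcripts alone (green squares) and with all its reads placed on the main coding transcript (purple triangles), filled for replicate 1 and open for replicate 2. Hes1 falls from 384 to 83.2 or 164 on average, while Atoh1, Creb3l1 and Notch2, with 1 transcript each, keep the same values.

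Notch1, a receptor of crypt epithelium, endothelium and lymphoid cells (ENSMUSG00000026923.11, chromosome 2, 26457903 to 26516663, minus strand), had 6327 counts and 28.6 TPM in replicate 1 and 8126 counts and 35.65 TPM in replicate 2. Notch2 (ENSMUSG00000027878.10, chromosome 3, 98013527 to 98150361, plus strand), the other receptor known in the gut epithelium, had 3862 counts and 10.3 TPM in replicate 1 and 3773 counts and 10.2 TPM in replicate 2. Notch1 was the higher in both libraries, while Notch2 was level between them (log2 ratio 0.00) and Notch1 was not (log2 ratio -0.39). The ratio of Notch1 to Notch2 was 2.79 and 3.51 by TPM of the gene. It was 1.79 and 2.36 by coding transcripts, because a processed transcript of 406 nt took 32.6% and 28.8% of Notch1's TPM on 66.9 and 76.3 counts. The 9488-nt coding transcript of Notch1 held 98.5% and 98.7% of its counts. The authors' bounds for Notch1 in replicate 2 ran from 33.6 to 104, and its posterior mean TPM was 59.03. A further transcript of 184 nt, with 0 counts and an effective length of 1.24 nt there, had a posterior mean TPM of 22.2.

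Dll1, a ligand of secretory progenitors (ENSMUSG00000014773.9, chromosome 17, 15367354 to 15376872, minus strand), had 1735 counts and 24.35 TPM in replicate 1 and 1755 counts and 19.96 TPM in replicate 2. Dll4, a ligand shared by secretory cells and endothelium (ENSMUSG00000027314.6, chromosome 2, 119325784 to 119335962, plus strand), had 1731 counts and 17.8 TPM in replicate 1 and 1773 counts and 17.95 TPM in replicate 2. The reads of both ligands were thus nearly equal in number, and the gap in TPM came with their short transcripts. A retained-intron transcript of 797 nt took 43.8% and 31.5% of Dll1's TPM, and a processed transcript of 692 nt took 28.9% and 26.4% of Dll4's. By coding transcripts Dll1 had 12.6 ± 0.849 TPM and Dll4 12.9 ± 0.375, with overlapping ranges, and the ratio of Dll4 to Dll1 moved from 0.733 and 0.899 to 1.05 and 0.999. The endothelial markers, led by Egfl7 and Cdh5, summed to 133 and 138 TPM in the same libraries.

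Jag1, the Jagged ligand of vessel walls and other stroma (ENSMUSG00000027276.7, chromosome 2, 137081456 to 137116644, minus strand), had 585 counts and 3.11 TPM in replicate 1 and 858 counts and 4.89 TPM in replicate 2. It was the lowest of the 10 genes in each library and 1.5-fold higher in replicate 2 (log2 ratio -0.58, adjusted p 2.36e-13 by the exact binomial test). Its level was 0.128 of that of Dll1 in replicate 1 and 0.245 in replicate 2. By coding transcripts the ratio of Jag1 to Dll1 was 0.243 and 0.321. A retained-intron transcript of 1463 nt took 6.07% and 13.2% of Jag1's TPM. Endothelial markers had a median log2 ratio of -0.20 and smooth muscle markers, led by Acta2 and Tagln, one of -0.03. Their part in the Jag1 difference between the libraries, and that of sex, was not tested.

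**Figure D3:**
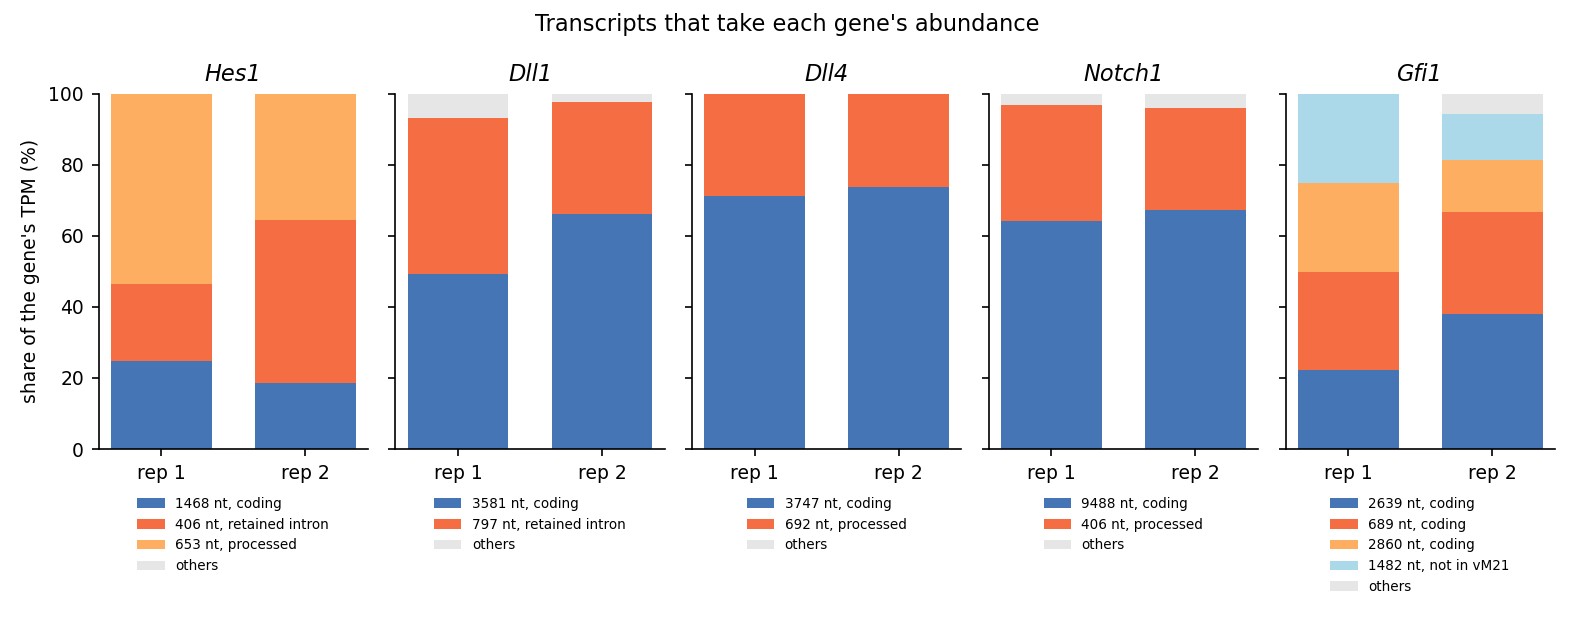
Share of the TPM (%) of Hes1, Dll1, Dll4, Notch1 and Gfi1 given to their transcripts in replicate 1 and replicate 2, with the main coding transcript in blue at the bottom and the length and class of each in the key. In Hes1 the coding transcript holds 24.9% and 18.7%, and in Gfi1 the largest share is that of the 689-nt transcript in replicate 1 and of the 2639-nt transcript in replicate 2, which by the posterior mean percent of the authors (23.8% against 29.1%) is second to the 689-nt transcript.

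Between the libraries, 0 of the 10 genes passed the threshold of an adjusted p of at most 0.05 and a 2-fold ratio by the exact binomial test, where 6.36% of all 17713 genes tested did. At any fold, 6 of the 10 had an adjusted p of at most 0.05, against 49.4% of all genes. In edgeR's exact test at the common dispersion that count was 0 of the 10, also at an unadjusted p under 0.05, against 1.35% of all genes with an adjusted p of at most 0.05. That dispersion was estimated from these same 2 libraries as 1 group, so the difference tested is part of its own error term. A gene that does not pass by it is not shown to be alike in both libraries. The members had from 585 to 15330 counts in a library. The median absolute log2 ratio was 0.089 over the 10 genes, 0.233 over all genes tested and 0.167 over the 7730 genes whose mean TPM reached 10. By scaled counts 8 of the 10 were lower in replicate 1. Creb3l1, Jag1 and Notch1 lay furthest from 0, and the other 7 lay within the median absolute ratio of all genes. Ratios of Dll1, Gfi1 and Hes1 took the opposite sign when computed from TPM of the gene (0.28, 0.01 and -0.13). Scaled counts of coding transcripts, chosen after seeing the data, kept the sign of the gene's scaled counts (-0.15, -0.26 and 0.26). For Gfi1 they leave out the 1482-nt transcript (282 and 144 counts), whose class was not known here. The direction for Dll1, Gfi1 and Hes1 thus depends on the measure.

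**Figure D4:**
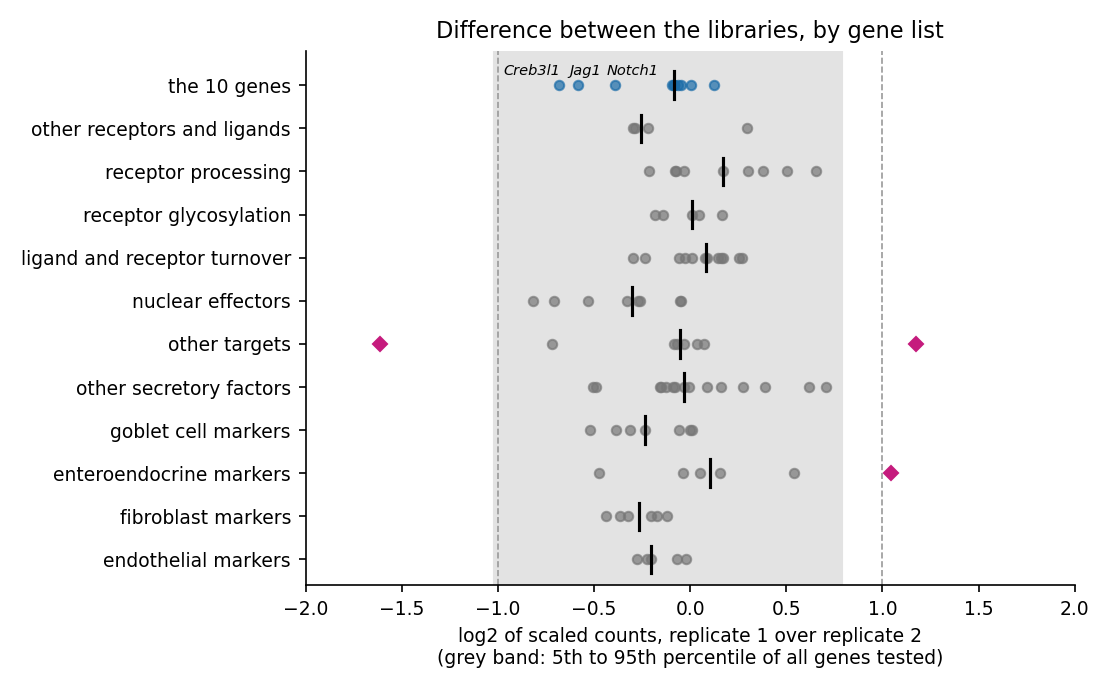
Log2 ratio of scaled counts, replicate 1 over replicate 2, for the 10 genes (blue), other pathway lists and cell type markers (grey), with list medians as black bars, genes past the threshold as pink diamonds, dashed lines at 2-fold and the 5th to 95th percentile of all genes tested as a grey band. All 10 genes lie inside the dashed lines. Of the lists drawn, which leave out the Paneth cell, acinar, colonocyte, smooth muscle and lymphoid markers, Hes5 (-1.61), Hey2 (1.18) and the enteroendocrine marker Chgb (1.04) lie outside.

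The rest of the pathway was read from 62 further genes in 7 lists, of which 55 were above a TPM of 1 in both libraries. In all, 2 of the 61 tested passed the threshold, 1 in each direction, where 2.55% of all genes passed as higher in replicate 1 and 3.81% as higher in replicate 2. Their median log2 ratio was -0.03, and that of all genes tested was -0.0041.

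Among the other receptors and ligands, Notch4, the endothelial receptor, had 22.5 ± 4.23 TPM, Notch3, the receptor of vessel smooth muscle, 10.7 ± 1.10 and the ligand Jag2 6.82 ± 0.905. Dll3, which acts within the cell against signalling, was lowest at 0.650 ± 0.156. Set beside the members by TPM of the gene, Notch4 stood between Notch1 and Notch2, Notch3 close to Notch2, and Jag2 above Jag1. By reads Notch4 was below Notch2, with 1717 and 2063 counts against 3862 and 3773. Its place by TPM therefore depends on the transcript lengths that its reads were given, and its division between transcripts was not examined. None of the 4 passed the threshold.

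Among 9 genes that cut the receptor, Aph1a, a subunit of gamma-secretase, was highest. It had a TPM of 436 in the first library against 212 in the other, and its log2 ratio was 0.65 by scaled counts against 1.04 by TPM. Psenen, another subunit, had 132 ± 35.1 TPM and Ncstn, which binds the substrate, 90.8 ± 1.28. The lowest was the paralogue Aph1b at 3.35 ± 1.35. Of the 9 genes, 0 passed the threshold, and 5 were higher in replicate 1. Of the 5 enzymes that add sugars to the receptor and so tune its choice of ligand, Rfng had 58.4 ± 3.65 TPM, Lfng 51.2 ± 0.714 and Pofut1, which adds the O-linked fucose, 27.4 ± 0.0212. Mfng was lowest at 7.32 ± 0.686. None of these passed the threshold.

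Among 12 genes of ligand and receptor turnover, 0 passed the threshold. Neurl1b, a ubiquitin ligase of ligands, was highest with 121 ± 5.49 TPM, followed by Numb, an endocytic antagonist of Notch, with 81.0 ± 5.97 and Dtx3 with 77.8 ± 6.23. Fbxw7, which marks the active receptor for destruction, was lowest with 2.19 ± 0.255.

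The nuclear effectors were low, and all 8 had ratios below 0, with 0 past the threshold. Ep300, a coactivator, had 25.3 ± 3.69 TPM (log2 ratio -0.33) and Spen, a corepressor, 21.8 ± 3.68 (-0.71). Rbpj itself, picked out after its values were seen, had 6.07 ± 0.778 (-0.27), and the coactivator Maml2 was lowest with 1.87 ± 0.516. The list's median was -0.30. The median effective length over the list was 5286 nt, and all 8 genes were above 4000 nt. Over genes whose mean TPM reached 1, the median log2 ratio was -0.06 in the 615 genes with an effective length of 6000 nt or more and -0.02 in the 1408 from 4000 to 6000 nt, against 0.03 in the 4059 from 1000 to 2000 nt. The part of length in the list's ratio was not tested.

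The list of other targets, which also holds relatives of Hes1, was mostly low. Whether each gene in it follows Notch signalling in this tissue was not tested. Hes6, a relative of Hes1 that opposes it in other tissues and is also a gene of secretory precursors, had 139 ± 5.23 TPM and Nrarp, a feedback inhibitor of Notch, 35.55 ± 0.905. Next came Hey1, a target in endothelium, with 4.54 ± 0.629. Hes3 had 0 counts in both libraries. The genes past the threshold were Hey2, with 342 counts and 4.00 TPM in replicate 1 and 148 counts and 1.75 TPM in replicate 2 (log2 ratio 1.18, adjusted p 5.57e-17 by the exact binomial test), and Hes5, with 6 and 19 counts (log2 ratio -1.61, adjusted p 0.0198). Both had an adjusted p of 1 in edgeR's exact test at the common dispersion. They lay on opposite sides, and Nrarp (0.04) and Hey1 (-0.07) were close to level.

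Among 15 other secretory factors, 0 passed the threshold. Klf4, a factor of goblet cells that differentiated colonocytes also use, was highest with 586 ± 51.4 TPM, above Spdef and above Hes1 as deposited. Xbp1, a factor of the unfolded protein response in secretory cells, followed with 151 ± 27.8 and Foxa2, a goblet and enteroendocrine factor, with 129 ± 7.47. Factors of the rarer secretory lineages, picked out after their values were seen, were low: Neurog3, which starts the enteroendocrine program, had 1.70 ± 0.156 TPM and Pou2f3, the tuft cell factor, 0.690 ± 0.0141. Enteroendocrine markers, led by Pyy and Insl5, summed to 2440 and 2212 TPM.

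Some of the 10 genes lie across others on the genome, and whether the counting of these stranded libraries used the strand is not given in the sources used here. On the opposite strand, A930024N18Rik overlaps 1873 bases of Dll1's span and had 57 and 25 counts, Gm14207 overlaps 411 bases of Dll4's and had 44 and 73, and 0610009E02Rik overlaps 1488 bases of Notch1's and had 52 and 49. A430072P03Rik, with 0 and 1 counts, lies across Gfi1, and the unspliced models Gm42819 and Gm42820 lie within Notch2 and were not measured. In GENCODE vM21 no gene overlaps Hes1, Atoh1, Spdef, Jag1 or Creb3l1.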

How the data were processed

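Polyadenylated RNA of the colon was sequenced in 2 stranded libraries of 1 group. Per the deposited file notes, the gene and transcript tables rest on mm10 with GENCODE M4. The authors deposited expected counts (reads estimated per feature, not normalized), TPM (abundance per effective length, scaled to one total), a posterior mean of TPM, FPKM, the percent of a gene's TPM given to each transcript, and bounds around TPM. These deposited bounds were treated as a score, since their level is not given in the sources used here. The aligner, the quantifier and whether counting used the strand are likewise not given in the sources used here.

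Symbols, coordinates and transcript classes came from GENCODE vM21 by identifier without version, and 42462 of 43346 genes matched. A transcript with no entry there was not counted as coding, in the members or over all genes. The members and lists were chosen with earlier results of these data known. Features outside genes (0.895% and 1.02% of all counts) were left out. Each gene's rounded count was tested against the share expected from TMM-scaled library sizes (edgeR 4.0.16, R 4.3.3) with an exact binomial test, two-sided, doubling the tail where the counts summed to more than 2000. Benjamini-Hochberg adjustment ran over 17713 genes whose counts summed to 10 or more. The threshold was an adjusted p of 0.05 or less with a 2-fold ratio. A log2 ratio is that of scaled counts in replicate 1 to those in replicate 2, after adding 0.5. The test sees counting error alone and compares 2 libraries, not conditions. The common dispersion for edgeR's exact test, an alternative below, was estimated from these same 2 libraries as 1 group. The steps were tested on simulated data.

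Alternatives were DESeq2 1.42.0 size factors, total counts with and without acinar markers, no count minimum or one of 100, adding 1, edgeR's exact test at the common dispersion (a biological coefficient of variation of 0.271), FPKM or posterior means for levels, and leaving out either library. Genes were named by rule: the 10 members, the 3 highest by mean TPM and the lowest of each pathway list, any of these lists past the threshold, the 2 highest of each marker list, and transcripts with at least 10% of a member's TPM in either library. Any other gene or transcript was picked out with its values in view. Some genes that this rule names are not reported here. The mm9 junction and contig files were not used, since no mm9 annotation was at hand to tie them to these genes.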

Additional observations from a re-analysis of the deposited data

How the results depend on the processing

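In the test between the libraries, 0 of the 10 genes passed the threshold under the 7 other settings of scaling, count minimum, added count and test. Of 70 log2 ratios of the 10 genes under these, 69 kept their direction and stayed under the threshold. That of Notch2 turned from 0.0030 to -0.0155 with total counts less the acinar markers. The settings of count minimum, added count and test leave these log2 ratios almost unchanged, so their part of this agreement was fixed in advance. Ratios from TPM, given below, are not among the 70. Over all genes, 1126 passed in the exact binomial test, 415 where counts had to sum to 100, and 239 in edgeR's exact test at the common dispersion. Of the 62 further pathway genes, 2 passed, 1 (Hey2) where counts had to sum to 100 and Hes5 was not tested, and 0 in edgeR's exact test.

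For the order of levels, 6 to 10 of the 10 genes kept their place when either replicate was left out: Creb3l1 and Atoh1, and Gfi1 and Dll1, changed places without replicate 2. With coding transcripts alone, 4 kept their place, the ratio of Dll4 to Dll1 turned from 0.816 to 1.03 and that of Hes1 to Atoh1 from 3.70 to 0.804 (means of both libraries). With TPM of the gene in place of scaled counts, the log2 ratio of Dll1 was 0.28, that of Hes1 -0.13 and that of Gfi1 0.0088. These settings on transcripts and TPM were chosen after seeing the data. By the posterior mean isoform percent, the leading transcript of Gfi1 in replicate 2 was the 689-nt one (29.1%), not the 2639-nt one (23.8%). The posterior mean TPM of Notch1 was 44.5, against 32.1 as TPM. No paired analysis was possible because there is 1 group. Depth limits Hes5 most among the genes past the threshold, with 6 and 19 counts.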
